A study of Homo sapiens with 12 samples.

Results

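The genes described here carry out glycolysis and the transcriptional response to low oxygen: 32 genes listed together as a module, from the glucose importers through the glycolytic steps and their isoforms to lactate dehydrogenase, pyruvate dehydrogenase kinase and hypoxia-induced genes. Of these, 28 were read by a probe set that names 1 gene, among 18132 genes read in this way. SLC2A3, a glucose importer, was read only by 5 probe sets that also name SLC2A14, and SLC16A1 and SLC16A3, which carry lactate, and CA9, a carbonic anhydrase induced by low oxygen, were not analysed here. Their levels were measured with Affymetrix PrimeView arrays, which read the 3′ ends of transcripts, in BE(2)-C cells given 1 µM JQ1 for 24 h, BE(2)-C cells given DMSO for 24 h, Kelly cells given 1 µM JQ1 for 24 h and Kelly cells given DMSO for 24 h, with 3 arrays a group. Kelly and BE(2)-C are human neuroblastoma lines that carry extra copies of MYCN, and BE(2)-C is a clonal subline, so every comparison of the lines rests on 1 line of each kind. JQ1 occupies the bromodomains of BET proteins and takes them off acetylated chromatin, and DMSO is its solvent. The labels describe cells treated in triplicate and do not say whether the 3 were separate cultures, so the spread behind each p-value may be partly or wholly technical. The labels give no oxygen level for any group.

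Glycolysis turns glucose into pyruvate in the cytosol and yields ATP and NADH. Lactate dehydrogenase then regenerates NAD+ by making lactate, unless pyruvate enters mitochondria through the pyruvate dehydrogenase complex, which the PDK kinases switch off. When oxygen falls, the hypoxia-inducible factors HIF1A and EPAS1 escape degradation, pair with ARNT and raise most glycolytic genes together with regulators such as VEGFA, EGLN3 and ADM. MYC proteins bind many of the same glycolytic promoters, and MYCN is the amplified family member in these lines.

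The members with the largest differences between the lines were EGLN3, LDHA and PDK1. Under DMSO, the measured signal in BE(2)-C cells was 12.5-fold lower for LDHA and 12.4-fold lower for PDK1 than in Kelly cells, and 17.4-fold higher for EGLN3. The lower signal lay near the background of the arrays for PDK1 (in BE(2)-C) and EGLN3 (in Kelly), so these 2 folds are limited by background and may understate the difference. LDHB, the other lactate dehydrogenase subunit, differed by -0.18 on the log2 scale and did not pass the test. JQ1 changed fewer members: PFKP, the platelet phosphofructokinase, fell in both lines, by 0.98 on the log2 scale in BE(2)-C and by 1.35 in Kelly. EGLN3 fell in BE(2)-C, SLC2A1 fell in Kelly, and PFKFB3, P4HA1 and NDRG1 rose in Kelly. The rise of PFKFB3 was called in 1 of its 4 probe sets.

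A member was called where its limma p-value, adjusted by Benjamini-Hochberg over all 18132 genes, was under 0.05. BE(2)-C against Kelly under DMSO called 10 of 28 members, where 15.1% of all genes were called. Of these 5 were higher, against 7.2% of all genes, and 5 were lower, against 7.89%. For JQ1 in BE(2)-C, 2 members were called, where 4.69% of all genes were called (2.18% higher and 2.51% lower). Both were lower, and 6 members had an unadjusted p under 0.05, as had 2767 of all 18132 genes. For JQ1 in Kelly, 5 members were called, where 6.5% of all genes were called. Of these 3 were higher, against 1.76% of all genes, and 2 were lower, against 4.73%. An unadjusted p under 0.05 was reached by 10 members and by 4077 of all 18132 genes. The median log2 fold change with JQ1 was -0.05 over the members and -0.01 over all genes in BE(2)-C, and -0.06 over the members and 0.08 over all genes in Kelly. Of the 28 members, 14 had a fold change below 0 in both lines and 8 above 0 in both, and PFKP was the 1 member called in both. Of all 18132 genes, 4266 were below 0 in both lines, 5676 above 0 in both, and 322 were called in both. Arrays of JQ1 and DMSO did not overlap for 9 members in BE(2)-C, 1 higher and 8 lower. Of all genes 22.2% did not overlap there, 11.5% higher and 10.7% lower. In Kelly 9 members did not overlap, 5 higher and 4 lower, where 23.7% of all genes did not, 12.1% higher and 11.6% lower. Between the lines under DMSO, 13 members did not overlap, 7 higher and 6 lower in BE(2)-C. Of all genes 25.7% did not overlap between the lines, 12.1% higher and 13.6% lower in BE(2)-C. The JQ1 count in BE(2)-C was 0 without its JQ1 replicate 1, its JQ1 replicate 3 or its DMSO replicate 2, 1 without its DMSO replicate 3, and 4 without its DMSO replicate 1 or the Kelly DMSO replicate 3. The JQ1 count in Kelly was 3 without its JQ1 replicate 1, BE(2)-C JQ1 replicate 1 or 2, or BE(2)-C DMSO replicate 2, and 2 without its JQ1 replicate 2 or 3 or its DMSO replicate 1. Without the 3 arrays of highest hybridization control signal, a choice made after seeing the data, the JQ1 counts of members were 7 in BE(2)-C and 9 in Kelly, and those of all genes 2565 and 4503.

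**Figure D1:**
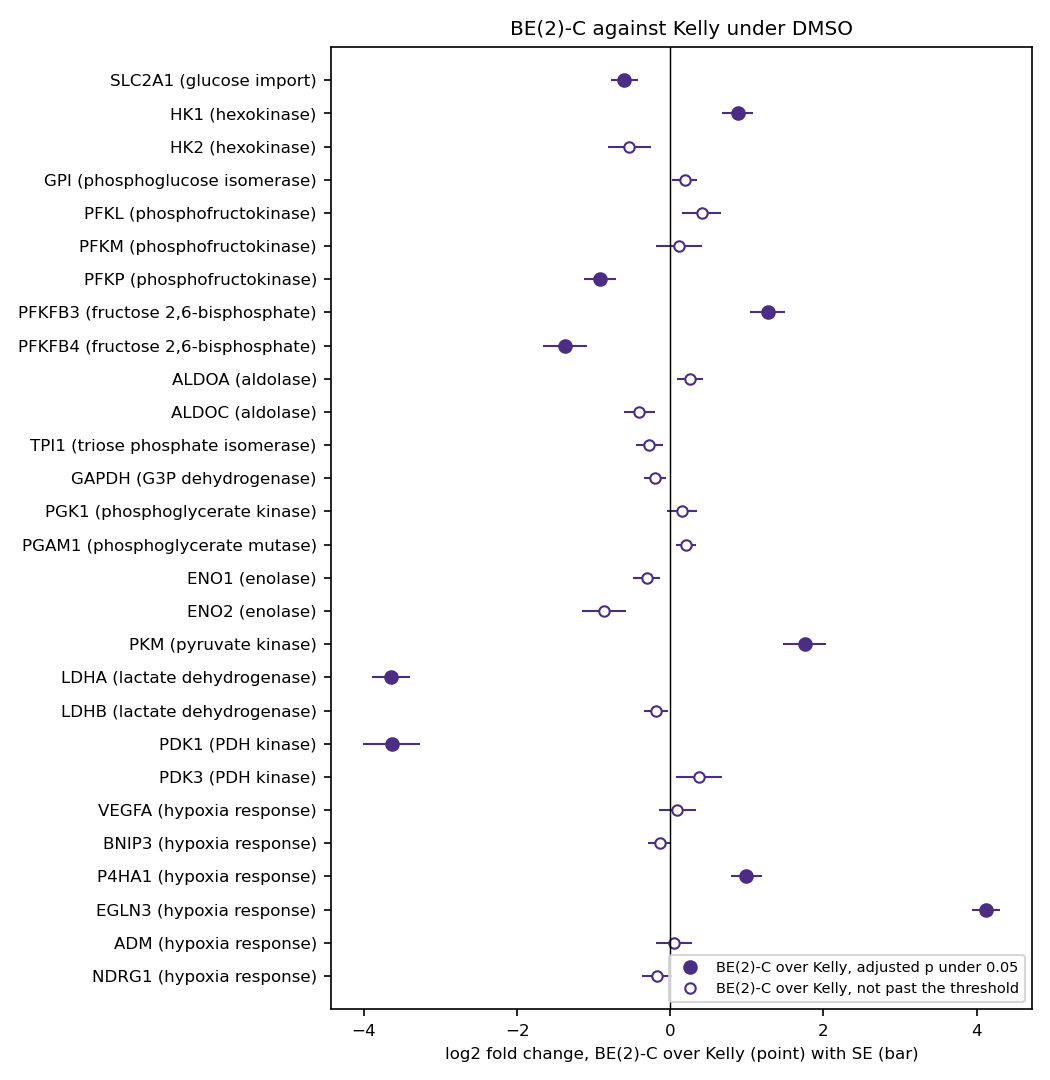
The log2 fold change of BE(2)-C over Kelly under DMSO (horizontal axis) is shown for each of the 28 measured members, in pathway order from top to bottom; points are limma estimates, bars are standard errors, and filled points have an adjusted p under 0.05. LDHA at -3.65 and PDK1 at -3.64 lie far to the left, EGLN3 at 4.12 lies far to the right, and the steps between aldolase and enolase lie close to 0.

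The treatment and the cells were checked on a few other genes. HEXIM1, a BET-inhibitor response gene, rose by 2.22 on the log2 scale in BE(2)-C (adjusted p = 2.81e-05) and by 1.43 in Kelly (adjusted p = 0.000376). MYCN had a log2 fold change of -0.33 in BE(2)-C (adjusted p = 0.209) and of -0.34 in Kelly (adjusted p = 0.136). Neither passed, yet in both lines every JQ1 array of MYCN lay below every DMSO array. The arrays were at 13.31, 13.16 and 13.23 against 13.64, 13.53 and 13.52 in BE(2)-C. In Kelly they were at 13.58, 13.47 and 13.55 against 13.87, 13.88 and 13.87. Of all genes 10.7% were lower without overlap in BE(2)-C and 11.6% in Kelly. Of 12 markers of sympathoadrenal neuroblastoma 11 were measured, with group means between 7.35 for TH and 14.12 for CHGA, while 5 haematopoietic markers had group means of 3.84 (PTPRC) to 6.53 (HBB), 5 epithelial markers 4.12 (CDH1) to 8.17 (KRT19), and 6 Schwann cell and fibroblast markers 4.50 (COL3A1) to 7.07 (SOX10). JQ1 called 4 of the 11 neuroblastoma markers higher and 2 lower in BE(2)-C, and 0 higher and 3 lower in Kelly. Of the 5 epithelial markers only KRT19 was called with JQ1, lower by 1.30 in BE(2)-C and by 1.37 in Kelly. In Kelly 4 of the 5 had a fold change above 0, and in BE(2)-C 1. DCN, a fibroblast proteoglycan, fell by 1.88 in BE(2)-C (adjusted p = 0.00028). Of the 6 markers of its list, 3 were above 0 and 3 below there. JQ1 called 4.69% of all genes in BE(2)-C and 6.5% in Kelly. Under DMSO 1 of the 5 epithelial markers and 3 of the 6 Schwann cell and fibroblast markers were called higher in BE(2)-C than in Kelly. Of all genes 7.2% were called higher. The part of other cell types in the results was not tested. The signal of 9 hybridization control probe sets, which are spiked into each sample and should not vary, averaged 11.41 ± 1.20 and 11.20 ± 1.54 log2 units in JQ1 and DMSO arrays of BE(2)-C, and 12.94 ± 0.69 and 11.90 ± 1.29 in JQ1 and DMSO arrays of Kelly (SD, n = 3 each). A slope of the level on that signal, fitted together with the 4 group means, passed the test for 14 of 28 members (50%) and for 53.5% of all genes. The 3′ over 5′ signal of ACTB, a reading of RNA length, was 0.91 ± 0.31 log2 units in BE(2)-C DMSO arrays and 1.67 ± 0.50 in Kelly DMSO arrays. In Kelly this ratio was highest in replicate 3 of both treatments, at 2.24 with JQ1 and 2.22 with DMSO, against 1.24 to 1.65 in the other Kelly arrays. These replicates also had the highest hybridization control signal of the 12 arrays, 13.65 with JQ1 and 13.26 with DMSO. The part of the ACTB ratio in the differences between the lines and in the JQ1 effects was not tested. Since arrays are scaled to each other, and bulk RNA is read, fewer cells, less RNA per cell and a change in total RNA cannot be told apart from these values.

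Glucose enters through SLC2A1 (GLUT1), a facilitative transporter that low oxygen and MYC raise in many tumours. In Kelly, SLC2A1 was at 10.50, 10.46 and 10.09 log2 units with JQ1, against 11.23, 10.79 and 11.11 with DMSO. The JQ1 arrays all lay below the DMSO arrays, a 1.62-fold lower level (log2 fold change -0.69 ± 0.18 SE, limma adjusted p = 0.0355). With the replicate number as a block the adjusted p was 0.0529. The call was also lost, at an adjusted p of 0.0522 to 0.164, without Kelly JQ1 replicate 2 or 3, Kelly DMSO replicate 1 or 3, BE(2)-C JQ1 replicate 1 or 2, or BE(2)-C DMSO replicate 2, with quantile normalization (-0.50, adjusted p = 0.141), and with the Kelly arrays alone (0.129). All 4 SLC2A1 probe sets were lower with JQ1 in Kelly, by -0.23 to -1.23, and 3 of them were called in a fit over all probe sets. In BE(2)-C, SLC2A1 was at 10.03, 10.03 and 10.29 with JQ1, against 10.65, 10.30 and 10.37 with DMSO. The highest JQ1 array and the lowest DMSO array nearly met, and the difference of -0.32 ± 0.18 SE did not pass (adjusted p = 0.48). Under DMSO, SLC2A1 was lower in BE(2)-C than in Kelly by 0.60 log2 units (adjusted p = 0.0371), a call lost without Kelly JQ1 replicate 2, Kelly DMSO replicate 1 or 3, BE(2)-C JQ1 replicate 1 or 2, or BE(2)-C DMSO replicate 2 or 3, at an adjusted p of up to 0.158, and with the DMSO arrays alone (0.0954). SLC2A3 (GLUT3), the neuronal importer, could be read only together with its near copy SLC2A14. Those 5 probe sets lay between 3.62 and 5.77 log2 units over the 12 arrays, where 23 antigenomic background sets had array medians between 3.91 and 4.55. Of these, 1 probe set, at 5.48 in BE(2)-C and 4.30 in Kelly under DMSO, was higher in BE(2)-C by 1.18 (adjusted p = 0.0038), and another rose by 0.63 with JQ1 in Kelly (adjusted p = 0.0383), at 4.63 with JQ1 and 4.00 with DMSO.

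Hexokinases trap glucose as glucose 6-phosphate. HK1, the form of most tissues, was higher in BE(2)-C, at 11.62, 11.82 and 11.65 under DMSO, against 10.99, 10.88 and 10.59 in Kelly under DMSO. The groups did not overlap and the difference was 0.88 ± 0.21 SE (adjusted p = 0.0109), with all 4 HK1 probe sets called higher, and it was lost only without BE(2)-C DMSO replicate 2 (adjusted p = 0.0516). The JQ1 log2 fold change of HK1 was -0.25 in BE(2)-C (adjusted p = 0.803) and -0.26 in Kelly (adjusted p = 0.448). HK2, the inducible form that tumours and hypoxic cells use, was at 6.85, 7.54 and 6.73 in BE(2)-C with JQ1, against 7.64, 8.14 and 8.30 with DMSO. Every JQ1 array was below every DMSO array, yet the difference of -0.99 ± 0.28 SE missed the threshold (adjusted p = 0.0666), and the second HK2 probe set gave 0.13. It passed without BE(2)-C JQ1 replicate 2, BE(2)-C DMSO replicate 1 or Kelly DMSO replicate 3 (adjusted p = 0.0406 to 0.0477), with the control signal as a covariate (0.000509) and with quantile normalization (0.0106). Within groups, HK2 fell with the hybridization control signal, by 0.29 log2 units per unit. Kelly cells had HK2 at 8.74, 8.49 and 8.11 with JQ1 and 8.52, 8.99 and 8.17 with DMSO, fully overlapping (-0.11 ± 0.28 SE, adjusted p = 0.822). GPI, which converts glucose 6-phosphate to fructose 6-phosphate, was between 11.10 and 11.44 in all 6 BE(2)-C arrays. In Kelly GPI was at 10.89, 10.82 and 10.45 with JQ1, below 11.23, 11.06 and 10.96 with DMSO, a difference of -0.37 that did not pass (adjusted p = 0.208).

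Phosphofructokinase makes fructose 1,6-bisphosphate and is the step at which glycolysis is committed. Its 3 subunits, PFKL, PFKM and PFKP, are named for liver, muscle and platelet. PFKP was at 7.68, 7.81 and 7.76 in BE(2)-C with JQ1, against 8.81, 8.70 and 8.68 with DMSO. It was at 8.68, 8.48 and 7.72 in Kelly with JQ1, against 9.64, 9.73 and 9.57 with DMSO. In both lines the JQ1 arrays lay below the DMSO arrays with a gap wider than the DMSO spread, and the third Kelly JQ1 array was the lowest of its group. The fall was 1.97-fold in BE(2)-C (-0.98 ± 0.21 SE, adjusted p = 0.0177) and 2.55-fold in Kelly (-1.35 ± 0.21 SE, adjusted p = 0.00181). The Kelly call stood when any 1 array was left out, while the BE(2)-C call was lost without BE(2)-C JQ1 replicate 1, 2 or 3 or DMSO replicate 2 (adjusted p = 0.0597 to 0.0875). The 2 falls differed by 0.37 with a 95% interval of -0.27 to 1.01 (adjusted p = 0.603). Under DMSO, PFKP was also lower in BE(2)-C than in Kelly by 0.92 (adjusted p = 0.00888). Only 1 probe set named PFKP alone, so these values have no second reading.

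The other phosphofructokinase subunits were not called with JQ1 in either line. PFKM was at 10.07, 10.41 and 10.06 in BE(2)-C with JQ1, against 9.81, 10.63 and 10.58 with DMSO (-0.16, adjusted p = 1). In Kelly it was at 9.82, 9.62 and 8.93 with JQ1, against 10.44, 10.59 and 9.66 with DMSO (-0.77 ± 0.30 SE, adjusted p = 0.155). The third array was the lowest of its group in both Kelly treatments, and with the replicate number as a block the Kelly fall of PFKM passed (adjusted p = 0.0366), as it did without Kelly DMSO replicate 3 (0.0385). The fall passed in only 3 of 21 alternatives, with estimates of -1.06 to -0.46. Within groups, PFKM fell with the hybridization control signal, by 0.30 log2 units per unit. With that signal as a covariate the Kelly difference was not called. PFKL stood at 7.12, 6.81 and 7.27 in BE(2)-C with JQ1 and 7.61, 6.92 and 6.83 with DMSO, and at 7.07, 7.16 and 7.78 in Kelly with JQ1 and 6.79, 6.38 and 6.96 with DMSO. The Kelly groups of PFKL did not overlap, with a difference of 0.63 that did not pass (adjusted p = 0.174). Within each array, PFKP minus PFKL averaged 0.68 ± 0.27 with JQ1 and 1.61 ± 0.36 with DMSO in BE(2)-C, and 0.96 ± 0.89 with JQ1 and 2.94 ± 0.38 with DMSO in Kelly (log2 units, SD, n = 3 each). The groups did not overlap in either line, which gave an exact two-sided permutation p of 0.1, the smallest that 3 against 3 allows (0.16 adjusted over 24 tests of paired isoforms).

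PFKFB enzymes make or break fructose 2,6-bisphosphate, the strongest activator of phosphofructokinase, and PFKFB3 and PFKFB4 are the forms that low oxygen induces. PFKFB3 was at 7.06, 7.06 and 6.97 in Kelly with JQ1, against 5.82, 6.25 and 6.17 with DMSO. The groups were far apart, a 1.93-fold rise (0.95 ± 0.23 SE, adjusted p = 0.026). It was at 6.97, 7.22 and 6.46 in BE(2)-C with JQ1, against 6.93, 7.53 and 7.61 with DMSO, overlapping (-0.47 ± 0.23 SE, adjusted p = 0.366). The JQ1 effect in BE(2)-C minus that in Kelly was -1.42 for PFKFB3, with a 95% interval of -2.11 to -0.72, and did not pass over all genes (adjusted p = 0.0847). Under DMSO, PFKFB3 was 2.42-fold higher in BE(2)-C than in Kelly (adjusted p = 0.00171), and the Kelly JQ1 mean of 7.03 lay nearer to the BE(2)-C DMSO mean of 7.36 than the Kelly DMSO mean of 6.08 did; these comparisons share the Kelly DMSO arrays. All these values come from the brightest of 4 PFKFB3 probe sets: the 3 others gave 0.24 to 0.25 in Kelly and -0.08 to 0.11 between the lines, and none of them was called. Among these 3, 1 was nearly as bright, at 6.93 with JQ1 and 6.70 with DMSO in Kelly, and at 6.80 in BE(2)-C with DMSO. It gave 0.24 in Kelly and 0.11 between the lines, so the size of both PFKFB3 differences depends on the probe set. Without Kelly JQ1 replicate 1, 2 or 3 or Kelly DMSO replicate 1 the Kelly rise had an adjusted p of 0.0601 to 0.127. PFKFB4 was at 6.92, 6.09 and 6.25 in BE(2)-C under DMSO, against 7.73, 7.32 and 8.33 in Kelly under DMSO. That is 2.59-fold lower in BE(2)-C (adjusted p = 0.00449), seen in 1 of 4 probe sets. The JQ1 log2 fold change of PFKFB4 was -0.30 in each line (adjusted p = 0.871 in BE(2)-C, 0.525 in Kelly).

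**Figure D2:**
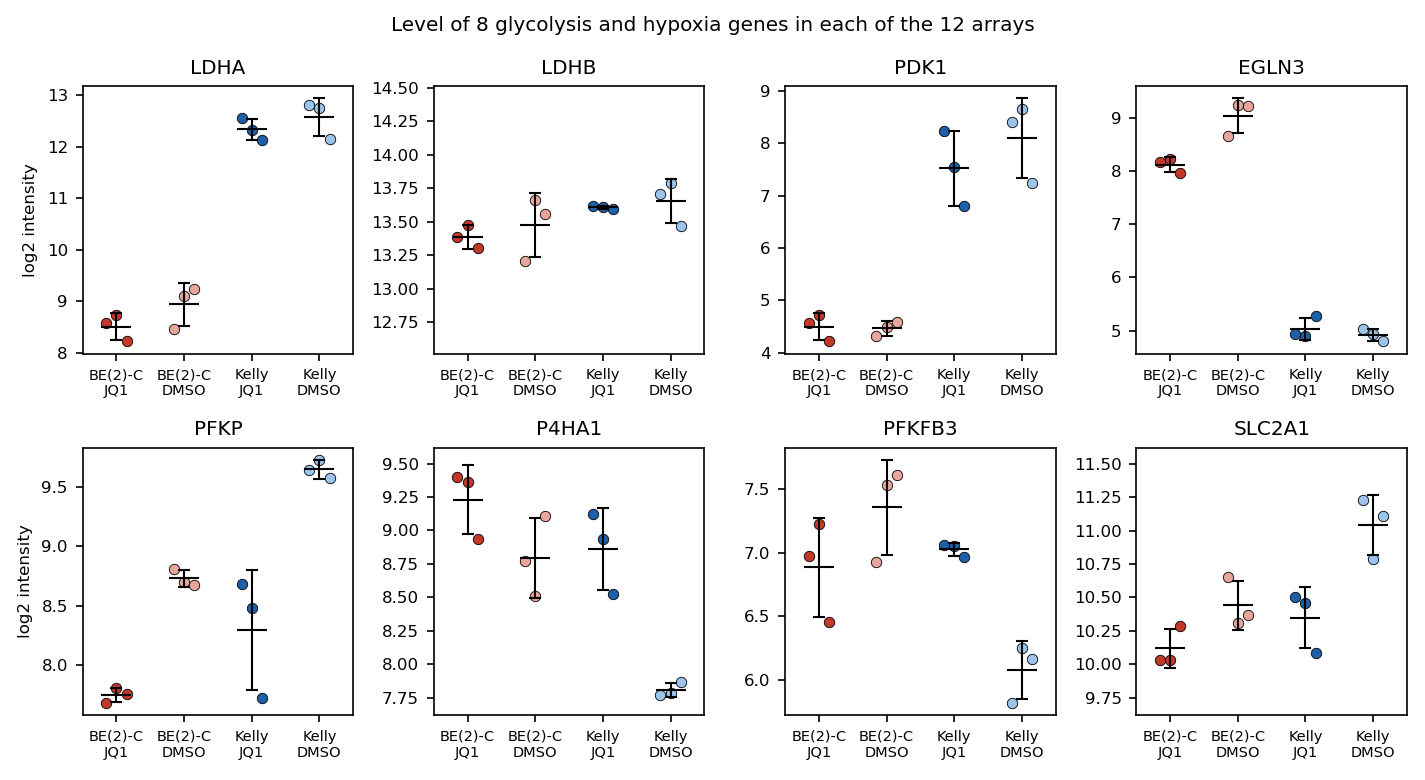
Log2 intensity (vertical axis, scaled separately for each gene) of 8 members in the 12 arrays, by line and treatment; each dot is 1 array, the line is the group mean and the bar is ± 1 SD (n = 3). LDHA and PDK1 are low in all BE(2)-C arrays and high in all Kelly arrays, EGLN3 the other way round, and PFKP is lower with JQ1 in both lines.

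No member of the middle of the pathway, which splits the sugar and recovers ATP and NADH, was called in any comparison, although the aldolase ALDOC was under some of the alternatives. ALDOA and ALDOC are aldolases, the second of which is the brain form. ALDOC was at 9.38, 9.60 and 9.26 in BE(2)-C with JQ1, against 8.39, 8.89 and 8.91 with DMSO, without overlap. Its difference of 0.69 ± 0.20 SE missed the threshold (adjusted p = 0.0779; 0.0448 without Kelly DMSO replicate 3, 0.000781 with the control signal as a covariate and 0.00724 with quantile normalization), and its 5 probe sets were all higher, by 0.22 to 0.69. In Kelly it was at 9.58, 9.38 and 9.20 with JQ1 and 9.30, 9.31 and 8.79 with DMSO (0.25, adjusted p = 0.456; 0.0271 with the covariate and 0.0445 with quantile normalization). Between the lines under DMSO ALDOC differed by -0.41 (adjusted p = 0.254; 0.00338 with the covariate and 0.0155 with quantile normalization). ALDOA lay between 12.03 and 12.93 over the 12 arrays and had a JQ1 log2 fold change of -0.14 in BE(2)-C (adjusted p = 0.959) and by -0.27 in Kelly (adjusted p = 0.338). TPI1, triose phosphate isomerase, lay between 12.36 and 13.06, GAPDH, glyceraldehyde 3-phosphate dehydrogenase, between 13.79 and 14.28, PGK1, phosphoglycerate kinase, between 11.80 and 12.65, and PGAM1, phosphoglycerate mutase, between 12.77 and 13.13. The estimates of these 4 for JQ1 lay between -0.23 (PGAM1) and 0.19 (GAPDH) in BE(2)-C and between -0.03 (PGAM1) and 0.15 (PGK1) in Kelly. The 95% intervals were narrow: -0.13 to 0.50 for GAPDH in BE(2)-C and -0.20 to 0.43 in Kelly, and -0.33 to 0.44 for TPI1 in BE(2)-C and -0.38 to 0.39 in Kelly. Probe sets of a gene were less even for JQ1 in Kelly, where the 9 of PGK1 gave -0.69 to 0.15 and the 4 of PGAM1 gave -0.43 to -0.03, with none called.

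Enolase makes phosphoenolpyruvate. ENO1, the general form, was at 11.33, 11.52 and 11.70 in BE(2)-C with JQ1, below 11.92, 12.06 and 11.93 with DMSO (-0.45 ± 0.18 SE, adjusted p = 0.215). ENO2, the neuronal form and a clinical marker of neuroblastoma, was at 8.09, 7.76 and 8.16 in Kelly with JQ1, against 9.15, 9.45 and 8.19 with DMSO. The third DMSO array lay just above the JQ1 arrays, and the difference of -0.93 ± 0.29 SE did not pass (adjusted p = 0.0833). Without that array it was -1.30 and passed (adjusted p = 0.00515). The Kelly fall of ENO2 passed in only 2 of 21 alternatives, with estimates of -1.37 to -0.66. Within groups, ENO2 fell with the hybridization control signal, by 0.25 log2 units per unit. With that signal as a covariate the Kelly difference was not called. In BE(2)-C ENO2 overlapped, at 7.88, 8.28 and 7.89 with JQ1 and 7.65, 8.37 and 8.18 with DMSO (-0.05, adjusted p = 1).

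Pyruvate kinase closes the pathway. PKM, whose splice forms these probe sets were not used to tell apart, was at 11.03, 11.55 and 11.68 in BE(2)-C under DMSO, against 9.74, 10.10 and 9.15 in Kelly under DMSO. The lines did not overlap and BE(2)-C was 3.37-fold higher (1.75 ± 0.28 SE, adjusted p = 0.000788), with 4 of 6 probe sets called and all 6 higher, by 0.11 to 1.75. With JQ1, PKM was at 11.66, 11.91 and 11.54 in BE(2)-C (0.28 ± 0.28 SE against DMSO, adjusted p = 0.9) and at 9.34, 9.38 and 8.54 in Kelly (-0.58 ± 0.28 SE, adjusted p = 0.245).

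LDHA and LDHB are the subunits of the lactate dehydrogenase tetramer, LDHA the form of glycolytic muscle and tumours and LDHB that of heart. LDHA was at 8.46, 9.10 and 9.24 in BE(2)-C under DMSO, against 12.82, 12.76 and 12.16 in Kelly under DMSO. All arrays of BE(2)-C lay far below all arrays of Kelly. The difference was -3.65 ± 0.24 SE (adjusted p = 4.27e-07), and the 4 LDHA probe sets gave -3.65 to -4.10, all called. LDHB was at 13.21, 13.66 and 13.55 in BE(2)-C under DMSO, against 13.71, 13.79 and 13.47 in Kelly under DMSO, overlapping (95% interval of the difference -0.52 to 0.16, adjusted p = 0.634). JQ1 left both subunits without a call: LDHA was at 8.58, 8.72 and 8.22 in BE(2)-C with JQ1 (-0.43 ± 0.24 SE, adjusted p = 0.502) and at 12.55, 12.33 and 12.14 in Kelly with JQ1 (-0.24 ± 0.24 SE, adjusted p = 0.558). LDHB was at 13.38, 13.47 and 13.30 in BE(2)-C with JQ1 (95% interval of the difference -0.43 to 0.25) and at 13.62, 13.61 and 13.59 in Kelly with JQ1 (-0.39 to 0.29). Within arrays, LDHA minus LDHB averaged -4.54 ± 0.21 in BE(2)-C and -1.07 ± 0.21 in Kelly under DMSO (log2 units, SD, n = 3 each), without overlap (exact permutation p = 0.1, the smallest possible; 0.16 adjusted over 24 tests). Within groups, LDHA fell with the hybridization control signal by 0.25 log2 units per unit. With that signal as a covariate the JQ1 difference of LDHA in BE(2)-C passed (-0.38, adjusted p = 0.0462).

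PDK1 and PDK3 phosphorylate pyruvate dehydrogenase and so keep pyruvate out of mitochondria. PDK1, a classical HIF target, was at 4.31, 4.50 and 4.59 in BE(2)-C under DMSO, against 8.41, 8.66 and 7.24 in Kelly under DMSO. The difference was -3.64 ± 0.37 SE (adjusted p = 1.96e-05), and the second probe set, dimmer throughout, gave -0.78 and was also called. In BE(2)-C PDK1 lay close to the background medians of 3.91 to 4.55, so the size of the difference is limited by the background. With JQ1 it was at 4.56, 4.72 and 4.22 in BE(2)-C (0.03, adjusted p = 1) and at 8.23, 7.54 and 6.80 in Kelly (-0.58 ± 0.37 SE, adjusted p = 0.363). PDK3 was at 6.70, 7.08 and 6.24 in BE(2)-C with JQ1, against 5.62, 6.09 and 6.61 with DMSO, overlapping (0.57 ± 0.30 SE, adjusted p = 0.435). In Kelly PDK3 was at 6.13, 6.19 and 5.52 with JQ1, against 5.94, 5.94 and 5.31 with DMSO (0.22, adjusted p = 0.673). With the control signal as a covariate PDK3 passed with JQ1 in both lines (0.63 in BE(2)-C, adjusted p = 0.00766, and 0.54 in Kelly, adjusted p = 0.0303).

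Of the hypoxia-induced members, P4HA1, a collagen prolyl 4-hydroxylase subunit, was at 9.13, 8.94 and 8.53 in Kelly with JQ1, against 7.77, 7.78 and 7.86 with DMSO. The rise was 2.08-fold (1.06 ± 0.20 SE, adjusted p = 0.0075) and the call stood when any 1 array was left out. In BE(2)-C P4HA1 was at 9.40, 9.36 and 8.93 with JQ1, against 8.77, 8.51 and 9.11 with DMSO, overlapping through 1 array of each group (0.43 ± 0.20 SE, adjusted p = 0.347). Under DMSO it was 1.99-fold higher in BE(2)-C than in Kelly (adjusted p = 0.00469). Only 1 probe set named P4HA1 alone, so these values have no second reading.

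EGLN3 (PHD3), an oxygen-sensing prolyl hydroxylase that marks HIF subunits for degradation and is itself induced by HIF, was at 8.16, 8.22 and 7.96 in BE(2)-C with JQ1, against 8.66, 9.24 and 9.22 with DMSO. The groups did not overlap, a 1.90-fold fall (-0.92 ± 0.19 SE, adjusted p = 0.0129). The call was lost without BE(2)-C JQ1 replicate 1 or 3 or DMSO replicate 2 or 3 (adjusted p = 0.0548 to 0.0742). In Kelly EGLN3 was at 4.93, 4.89 and 5.27 with JQ1, against 5.02, 4.93 and 4.80 with DMSO, close to the background sets, where a fall would be hard to read. The JQ1 effects differed by -1.04 (95% interval -1.61 to -0.47, adjusted p = 0.138). Under DMSO the lines differed by 4.12 ± 0.19 SE (adjusted p = 1.20e-08). A second EGLN3 probe set, at 7.19 to 7.76 in BE(2)-C under DMSO against 4.60 to 5.31 in Kelly under DMSO, was called as well, and the third, at 5.15 to 5.38 against 4.78 to 4.94, was not.

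NDRG1, a stress and differentiation gene, was at 7.01, 7.03 and 6.77 in Kelly with JQ1, against 5.98, 6.26 and 6.35 with DMSO, a 1.67-fold rise (0.74 ± 0.20 SE, adjusted p = 0.0429). This call was lost, at an adjusted p of 0.0541 to 0.188, without any of the Kelly JQ1 or BE(2)-C JQ1 replicates, without Kelly DMSO replicate 1 or 2, or without BE(2)-C DMSO replicate 2, with the Kelly arrays alone (0.085) and with a trend in the prior (0.0612), and in a fit over all probe sets none of its 6 probe sets was called. In BE(2)-C NDRG1 was at 6.56, 6.55 and 6.43 with JQ1, against 6.49, 5.80 and 5.78 with DMSO. The groups overlapped through 1 DMSO array (0.49 ± 0.20 SE, adjusted p = 0.229). Without that array the difference was 0.72 and passed (adjusted p = 0.0314), but it passed in only 2 of 20 alternatives. Of the 6 NDRG1 probe sets 3 were lower with JQ1 in BE(2)-C, and the 6 gave -0.14 to 0.49. BNIP3, a mitophagy receptor, was at 11.57, 11.71 and 11.25 in Kelly with JQ1, just above 11.19, 11.20 and 11.00 with DMSO (0.38 ± 0.15 SE, adjusted p = 0.162; 0.0479 with the covariate and 0.0172 with quantile normalization), and between 10.93 and 11.08 in all 6 BE(2)-C arrays. VEGFA, the main angiogenic factor of hypoxic cells, lay between 10.44 and 11.19 over the 12 arrays and had JQ1 log2 fold changes of -0.05 in BE(2)-C and -0.08 in Kelly; its 10 probe sets gave -0.87 to 0.60 in Kelly with none called. ADM, the vasodilator adrenomedullin, was at 7.09, 6.84 and 7.26 in Kelly with JQ1 and 6.67, 6.29 and 6.89 with DMSO, and between 6.25 and 7.17 in BE(2)-C, with no call.

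**Figure D3:**
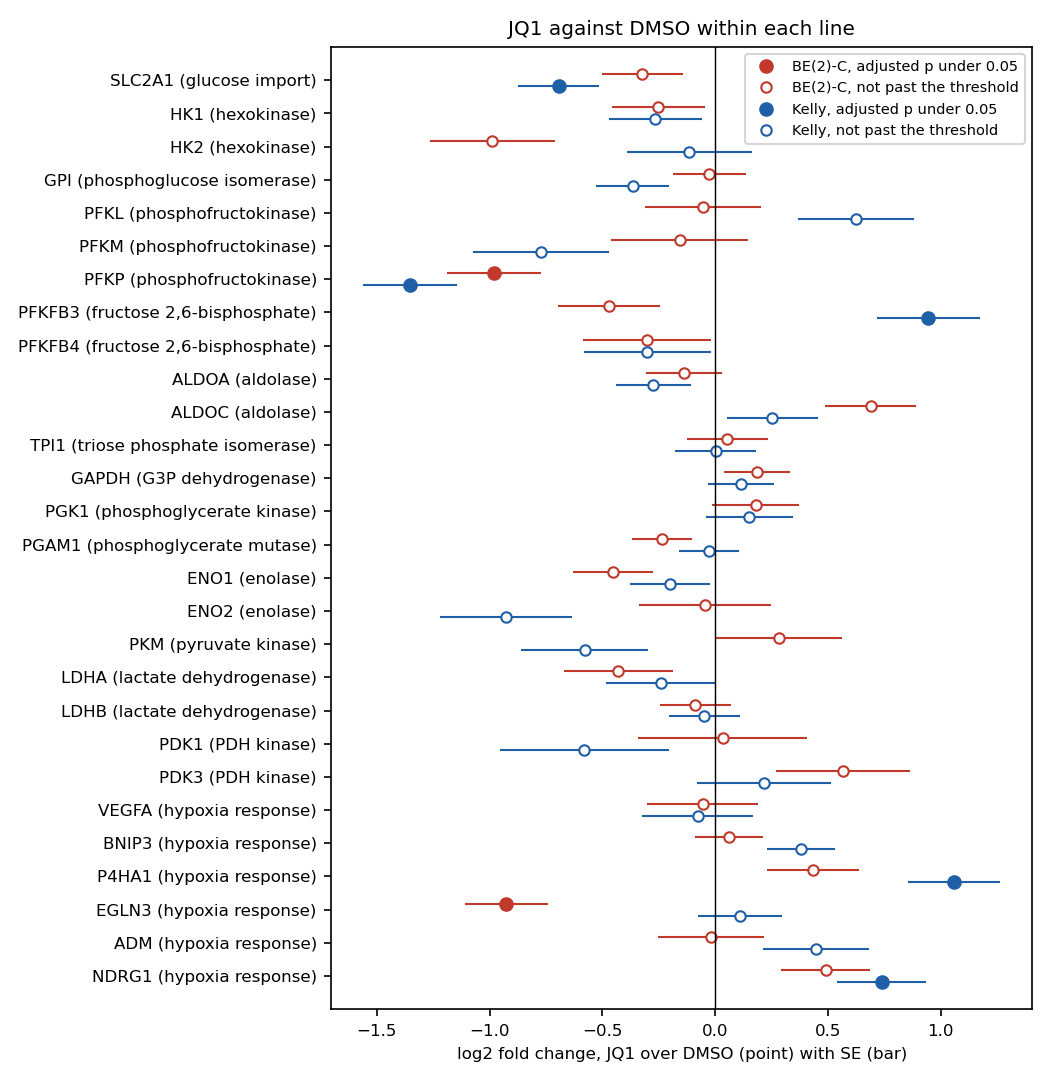
The log2 fold change of JQ1 over DMSO (horizontal axis) is shown for the 28 measured members in BE(2)-C (red) and Kelly (blue), in pathway order from top to bottom; points are limma estimates, bars are standard errors, and filled points have an adjusted p under 0.05. PFKP is filled in both lines, EGLN3 in BE(2)-C, and SLC2A1, PFKFB3, P4HA1 and NDRG1 in Kelly; none of the differences between the lines passed the test.

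The promoters of the 3 members with the largest differences between the lines, LDHA, PDK1 and EGLN3, and of P4HA1, which rose in Kelly, are shown as the 250 bases before the annotated start (RefSeq, GRCh38.p14). Where a gene had several starts the window with the most matches is given. Capitals mark the HIF core motif, ACGTG or GCGTG on either strand, and the MYC E-box CACGTG, which contains ACGTG on both strands.
LDHA (chr11:18394313-18394562, + strand): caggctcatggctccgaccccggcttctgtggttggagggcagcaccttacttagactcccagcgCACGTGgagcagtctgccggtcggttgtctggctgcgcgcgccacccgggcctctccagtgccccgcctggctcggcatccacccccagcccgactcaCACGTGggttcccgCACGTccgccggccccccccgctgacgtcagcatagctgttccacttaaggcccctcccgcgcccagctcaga
PDK1 (chr2:172555840-172556089, + strand): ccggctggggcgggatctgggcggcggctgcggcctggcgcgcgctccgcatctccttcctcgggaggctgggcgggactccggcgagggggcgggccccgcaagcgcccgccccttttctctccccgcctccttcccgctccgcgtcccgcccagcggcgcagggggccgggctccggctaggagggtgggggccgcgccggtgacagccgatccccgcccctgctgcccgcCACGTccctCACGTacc
EGLN3 (chr14:33951075-33951324, - strand): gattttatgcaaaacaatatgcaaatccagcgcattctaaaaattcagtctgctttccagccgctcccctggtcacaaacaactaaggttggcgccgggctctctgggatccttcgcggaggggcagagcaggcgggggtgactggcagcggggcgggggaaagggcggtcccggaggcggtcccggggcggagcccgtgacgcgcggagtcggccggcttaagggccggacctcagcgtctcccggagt
P4HA1 (chr10:73096867-73097116, - strand): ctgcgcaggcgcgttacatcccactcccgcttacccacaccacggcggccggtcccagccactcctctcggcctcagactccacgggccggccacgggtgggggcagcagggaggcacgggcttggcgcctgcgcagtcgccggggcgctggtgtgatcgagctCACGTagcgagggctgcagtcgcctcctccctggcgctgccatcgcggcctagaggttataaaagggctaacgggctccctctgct

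The LDHA window holds 2 copies of CACGTG and 5 core matches in all, each CACGTG counting on both strands, between -185 and -73 from the start. PDK1 has 2 core matches at -17 and -8, P4HA1 has 1 at -86, and these letters are not in the EGLN3 window. Of the 28 measured members 26 had promoter entries, with 48 windows. CACGTG occurred in 7 of the 48 windows (14.6%), belonging to HK2, PFKFB3, ALDOA, ALDOC, GAPDH, LDHA and BNIP3, against 6.345% of all 35116 windows. The core occurred in 27 of the 48 windows (56.2%), against 43.2% of all windows. Of the 7 genes with CACGTG, only PFKFB3 was called with JQ1, in Kelly. In Kelly 5 of 28 members and 6.5% of all genes were called, and in BE(2)-C 2 members and 4.69% of all genes. Of the other called members, PFKP, SLC2A1, P4HA1 and EGLN3 had no CACGTG in any of their windows, and NDRG1 had no promoter entry. Whether the motif goes with the JQ1 calls was not tested. A match is a stretch of letters and does not show that a factor binds there.

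The JQ1 effect in BE(2)-C minus that in Kelly was called for 0 of 28 members by limma, where 0.557% of all genes were called (0.441% higher and 0.116% lower). An unadjusted p under 0.05 was reached by 3 members and by 2047 of all 18132 genes. The estimates lay between -1.42 (PFKFB3) and 0.88 (ENO2), so calls made in 1 line are not shown to be absent from the other. With the hybridization control signal as a covariate, PFKFB3, EGLN3 and HK2 passed this test (adjusted p = 0.0026 for PFKFB3, 0.013 for EGLN3 and 0.00791 for HK2). PFKFB3 (adjusted p = 0.0292) and EGLN3 (0.0378) also passed without BE(2)-C DMSO replicate 1.

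**Figure D4:**
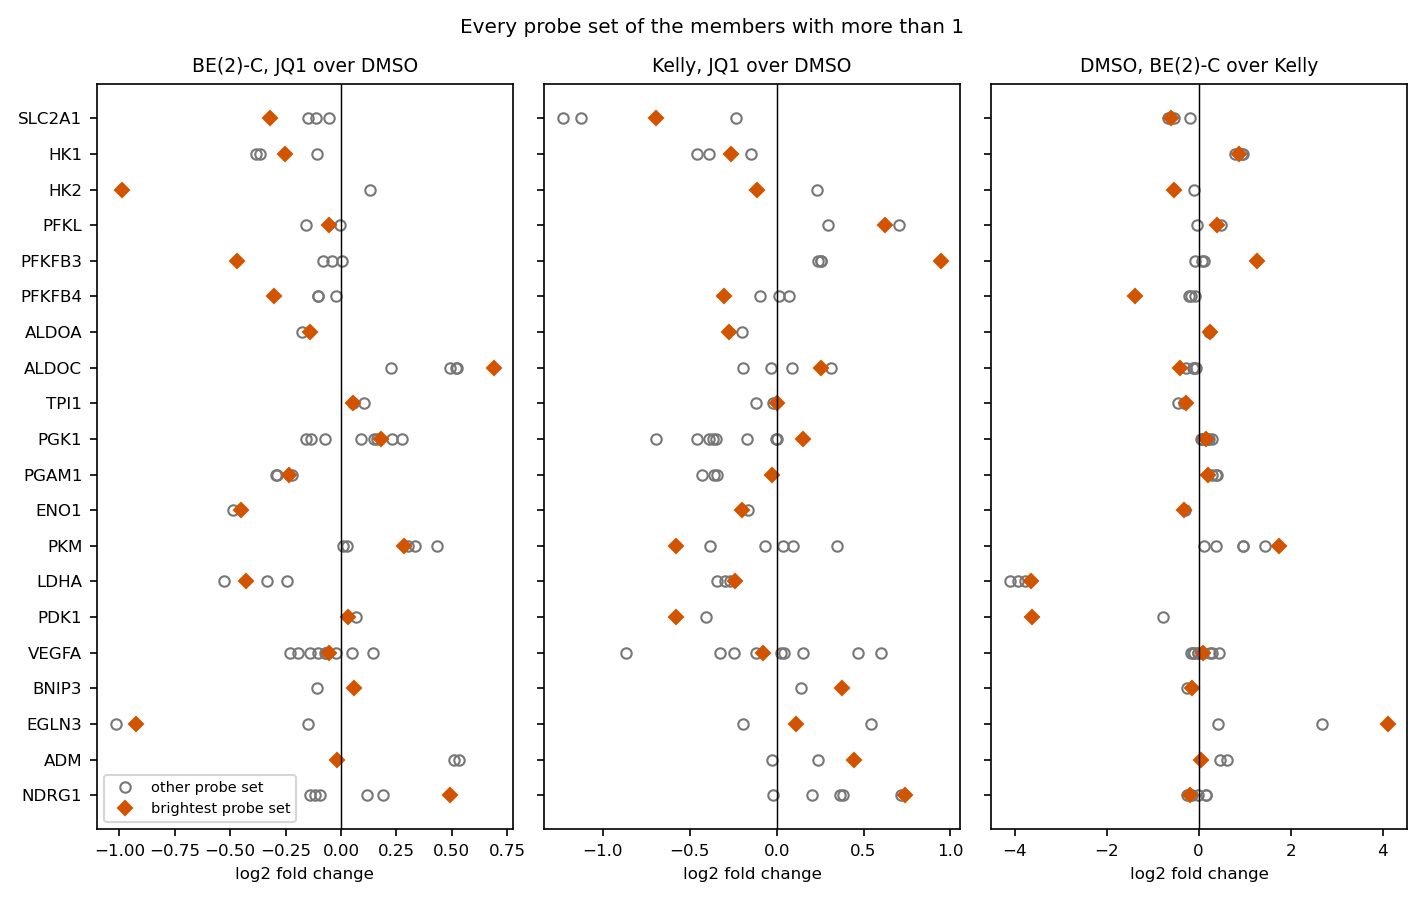
The log2 fold change of each probe set (horizontal axis) for the 20 members with more than 1 probe set naming that gene alone, for JQ1 over DMSO in BE(2)-C, JQ1 over DMSO in Kelly, and BE(2)-C over Kelly under DMSO; orange diamonds mark the brightest probe set, which reads the gene in the text, and open circles the others. The 4 LDHA and 4 HK1 probe sets keep together in the comparison of the lines, and those of PFKFB3, PFKFB4 and EGLN3 spread widely.

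Neighbouring pathways were read from lists of other genes. Across all genes, JQ1 called 4.69% in BE(2)-C and 6.5% in Kelly. An unadjusted limma p under 0.05 was reached by 2767 of all 18132 genes in BE(2)-C and by 4077 in Kelly. Among HIF subunits and oxygen-sensing genes, JQ1 called 0 of 12 in either line, with 2 at an unadjusted p under 0.05 in BE(2)-C and 1 in Kelly. Between the lines 3 of 12 were lower in BE(2)-C, where 7.89% of all genes were, and these are named after their values were seen: EPAS1 (HIF-2α) averaged 9.54 ± 0.14 in BE(2)-C and 12.79 ± 0.04 in Kelly under DMSO (SD, n = 3 each; difference -3.25, adjusted p = 9.78e-09), ARNT2 differed by -2.57 (adjusted p = 2.05e-06) and ARNT by -0.96 (adjusted p = 0.0184). HIF1A itself averaged 13.09 ± 0.25 in BE(2)-C and 13.06 ± 0.17 in Kelly (adjusted p = 0.973).

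Among 29 further hypoxia response genes, JQ1 raised 2 and lowered 1 in BE(2)-C (10.3% called, against 4.69% of all genes), and lowered 3 in Kelly (10.3%, against 6.5%). Between the lines under DMSO 10 of the 29 were called, 4 higher and 6 lower in BE(2)-C (34.5%, against 15.1% of all genes). BNIP3L, a mitophagy receptor related to BNIP3, was at 11.10, 11.11 and 11.05 in BE(2)-C with JQ1, against 9.25, 9.25 and 9.62 with DMSO, a rise of 1.71 ± 0.16 SE (adjusted p = 0.000103; 0.0843 with the brightest probe set without a cross-hybridization suffix). PLIN2, which coats lipid droplets, fell in both lines, by 1.29 in BE(2)-C (adjusted p = 0.0162) and by 1.34 in Kelly (adjusted p = 0.00961). KDM4B, a histone demethylase outside the naming rule, was the other that rose in BE(2)-C (0.73). The BE(2)-C call of PLIN2 was lost without BE(2)-C JQ1 replicate 1 or 3 or DMSO replicate 2 or 3 (adjusted p up to 0.085). AK4, a mitochondrial adenylate kinase, was at 7.69, 7.22 and 7.60 in Kelly with JQ1, against 9.64, 9.60 and 8.36 with DMSO (-1.70 ± 0.31 SE, adjusted p = 0.00587). ZNF395, a zinc finger protein, fell by 1.24 in Kelly (adjusted p = 0.00332), but its brightest probe set without a cross-hybridization suffix gave 0.24.

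The 5 glucose-sensing genes held 2 that rose in BE(2)-C and none called in Kelly. For every list in this paragraph, the share of all genes called with JQ1 was 4.69% in BE(2)-C (2.18% higher) and 6.5% in Kelly (4.73% lower). Of all 18132 genes, 2767 had an unadjusted limma p under 0.05 in BE(2)-C and 4077 in Kelly. TXNIP, which restrains glucose uptake and is induced by glucose through the MLX and MLXIP factors, was at 11.70, 11.74 and 11.72 in BE(2)-C with JQ1, against 9.09, 9.97 and 9.96 with DMSO (2.05 ± 0.27 SE, adjusted p = 0.000925). ARRDC4, its relative under the same control, was at 9.63, 9.67 and 9.27 with JQ1, against 8.36, 7.98 and 8.48 with DMSO (1.25 ± 0.21 SE, adjusted p = 0.005). In Kelly, TXNIP was at 10.71, 10.52 and 10.47 with JQ1, against 10.24, 10.41 and 9.46 with DMSO, without a call (0.53, adjusted p = 0.256). Of 13 genes of pyruvate entry into mitochondria, PDHX, a component of the pyruvate dehydrogenase complex, fell by 1.21 in Kelly (adjusted p = 0.0425). That call was lost, at an adjusted p of up to 0.17, without Kelly JQ1 replicate 2 or 3, Kelly DMSO replicate 1 or 2, BE(2)-C JQ1 replicate 1 or 2, or BE(2)-C DMSO replicate 2. None of the 13 was called with JQ1 in BE(2)-C, where 2 had an unadjusted limma p under 0.05. Of 11 genes of the pentose phosphate pathway and serine branch, PHGDH, the first enzyme of serine synthesis, fell by 0.67 in Kelly (adjusted p = 0.0242; up to 0.117 without Kelly JQ1 replicate 3 or Kelly DMSO replicate 1 or 2), and none was called in BE(2)-C, where 0 had an unadjusted limma p under 0.05. Of 23 other hexokinases and tissue forms of glycolytic enzymes, JQ1 called 0 in either line by limma, with 2 at an unadjusted p under 0.05 in BE(2)-C and 5 in Kelly.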

How the data were processed

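RNA of 12 samples, 3 in each of 4 groups taken from the sample titles, was read on PrimeView arrays. The authors ran RMA, a background correction, between-array normalization and probe summary, per the submitters' processing notes, in a version not stated there. The table deposited holds linear intensity, with array medians of 61.4 to 67.3. The design had assumed log2 input, so log2 was taken here with no offset, filter or floor. Of 49395 probe sets, 44988 named 1 gene; symbols were updated to the GRCh38.p14 gene table, and each of 18132 genes was read by its brightest probe set, taken on average over all arrays. Levels of different probe sets are not comparable, and 3 arrays a group limit the precision, with a median standard error of a JQ1 effect of 0.21 log2 units.

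Under R 4.3.3, limma 3.58.1 (eBayes without trend) fitted 4 group means over all 12 arrays, with two-sided p-values adjusted by Benjamini-Hochberg over all genes and a threshold of 0.05; it was tested on simulated data. Alternatives changed the probe set rule, covariates, normalization, filter, arrays, prior and each array left out. Residuals of same-numbered JQ1 and DMSO arrays correlated at 0.43, 0.23 and 0.51 in Kelly and at -0.07, 0.53 and -0.74 in BE(2)-C. Such correlations cannot show whether the replicate numbers pair the arrays. The members and lists were chosen with earlier results of these data known. All members were to be described, with up to 4 called genes of each further list whose JQ1 and DMSO arrays did not overlap, largest change first.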

Additional observations from a re-analysis of the deposited data

Results flagged for a closer look

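For 2 genes of the neighbouring lists the JQ1 effect differed between the lines by the test of the difference itself. BNIP3L, the mitophagy receptor, rose by 1.71 in BE(2)-C (adjusted p = 0.000103) and had a fold change of 0.53 in Kelly (adjusted p = 0.0647), a difference of 1.18 ± 0.22 SE (limma adjusted p = 0.0332). Probe sets of BNIP3L disagreed: in Kelly the fold change was -0.15 with the mean of the probe sets and -0.42 with the brightest probe set without an _s_at or _x_at suffix, and the difference was 1.84 and 2.09, without passing (adjusted p = 0.317 and 0.314). The difference of BNIP3L passed in 8 of 20 alternatives and in 4 of the 12 fits that each left out 1 array, those without Kelly JQ1 replicate 1, Kelly DMSO replicate 2 or 3 or BE(2)-C DMSO replicate 3 (adjusted p = 0.0352 to 0.124 over the 12). ARRDC4, the arrestin-domain relative of TXNIP, rose by 1.25 in BE(2)-C (adjusted p = 0.005) and had a fold change of -0.28 in Kelly (adjusted p = 0.441), a difference of 1.53 ± 0.30 SE (limma adjusted p = 0.0441). The difference of ARRDC4 passed in 4 of 20 alternatives and in 1 of the 12 fits that each left out 1 array, that without Kelly DMSO replicate 3 (adjusted p = 0.043 to 0.165 over the 12). Both genes were higher in 3 of 3 JQ1 arrays than in every DMSO array of BE(2)-C, as were 11.5% of all genes. The rule for naming genes of these lists required such a separation, so it adds no support. Across all genes 0.557% were called for the difference of the JQ1 effects.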

How the results depend on the processing

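Over the members, 2047 of the recomputed values kept their direction and side of the threshold, 46 gained a call, 50 lost one, and 109 uncalled values changed sign. The counts of called genes moved more. For JQ1 in BE(2)-C the count of all genes, 850, was 2752 with the hybridization control signal as a covariate, 2565 without the 3 arrays of highest control signal (chosen after seeing the data), and 322 to 1210 with 1 array left out; the count of members, 2, was 6, 7 and 0 to 4, and 4 with quantile normalization. For JQ1 in Kelly the count of all genes, 1178, was 2293 with the covariate, 4503 without those 3 arrays, 584 with the Kelly arrays alone, and 603 to 2168 with 1 array left out. The Kelly count of members, 5, was 8, 9, 3 and 2 to 6, 3 with the mean of the probe sets and 2 with the brightest probe set without an _s_at or _x_at suffix. For the difference of the JQ1 effects the 101 genes were 686 with the covariate, 457 without those 3 arrays, 52 among genes above the median level and 39 to 212 with 1 array left out, and the 0 members were 3, 3, 0 and 0 to 2, and 1 with quantile normalization. For BE(2)-C against Kelly under DMSO the 2735 genes were 4797 with the covariate, and the 10 members were 6 with the brightest probe set without a suffix. Of called genes in Kelly, 72.8% were lower, against 58.5% with quantile normalization, 61.6% with the covariate and 51.2% without those 3 arrays. Signs turned for ZNF395 with JQ1 in Kelly, 0.24 with the brightest probe set without a suffix, and for BNIP3L between the lines, 0.0615 with the mean of the probe sets and 0.0595 with that rule; uncalled, BNIP3L with JQ1 in Kelly also turned (-0.15 and -0.42). The cause was not tested. With the replicate number as a block, 1523 genes were called in Kelly, 793 in BE(2)-C and 100 for the difference. In BE(2)-C HK2 then passed (adjusted p = 0.0411), although it is not known whether the numbers pair the arrays. No paired analysis was possible for the comparison of the lines because the lines share no pairs. Signal near background limits what can be said of PDK1 in BE(2)-C and of EGLN3 in Kelly, under both treatments.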
